A study of Homo sapiens with 18 samples.

Results

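Open sites that were called in BE2C and in no Kelly library numbered 3743 of 146903 regions. The regions came from merging the peak lists of all 18 libraries on chromosomes 1 to 22 wherever peaks shared at least 1 bp. A region was kept when at least 6 of the 9 BE2C lists had a peak in it and 0 of the 9 Kelly lists did. Of 32105 regions that reached 6 BE2C lists, 18249 also reached 6 Kelly lists and are called shared regions here. The opposite set, with a peak in at least 6 Kelly and 0 BE2C lists, held 587 regions. Presence of a peak in the lists chose the members, so their presence in BE2C, their absence in Kelly and the strength of their BE2C peaks are a description with no test.

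In ATAC-seq a transposase inserts sequencing adapters into DNA that is not covered by nucleosomes, so pileups of fragments mark promoters, enhancers and insulators. Enhancers differ more between cell types, and between tumours of the same type, than promoters do, and neuroblastoma lines are known to differ in the enhancers that hold their adrenergic or mesenchymal state. BE2C and Kelly are established human neuroblastoma lines, and MYCN, a transcription factor gene, is amplified in the tumours that the series title concerns. The gene AHR encodes AhR, a receptor for small molecules that, once bound, enters the nucleus and acts on DNA as a dimer with ARNT.

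Cells of each line were transduced with a lentivirus that carried the empty vector pLKO or 1 of 2 short hairpin RNAs against AHR, shAhR-1 and shAhR-2. All cells thus carried a lentiviral vector, and no untransduced cells were used here. Each line and vector gave 3 libraries, in 6 groups. Whether the 3 libraries of a group came from separate cultures is not stated in the labels, so p-values measure only the spread between libraries, which may be technical. The level of AHR was not analysed here.

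Autosomal lists held 24894 to 43702 peaks in the 6 BE2C libraries with pLKO or shAhR-1 and 73755 to 79435 with shAhR-2. In Kelly they held 8967 to 33907 peaks with pLKO or shAhR-1 and 58932 to 64151 with shAhR-2. Length and background moved together in BE2C. Genome-wide background, as solved from fold and p, was 1.41 to 1.86 overlapping reads in the pLKO and shAhR-1 libraries and 3.40 to 4.42 in the shAhR-2 libraries. Read totals were not used here. A region without a peak is one where no peak passed the caller, not one shown to be closed. Fewer cells with an open site and a less open site in each cell cannot be told apart in these libraries.

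The members were mostly weak and narrow beside shared regions. Their median width was 884 bp, with quartiles of 703.5 and 1084 bp, against 1254 bp in shared regions. Together they covered 3.46 Mb. Fold enrichment at the summit is the authors' own value for each peak. Its median over the BE2C libraries with a peak had a median of 5.36 over members and 7.87 over shared regions. Peak height was the count of reads overlapping at a summit, solved from the fold and the p-value, as a percentage of the library's median at the 6149 sites called in all 18 libraries. Heights were also summarised over the BE2C libraries with a peak. On this scale the median member stood at 24.4%, with quartiles of 19% and 32.8%, and the median shared region at 59.4%. Local background at the summit was 1.36 times the genome-wide background in the median member and 2.54 times in the median shared region.

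Members differed among themselves along the number of libraries that carried them. There were 1263 with a peak in 6 BE2C libraries, 978 in 7, 750 in 8 and 752 in all 9. Regions in all 9 were wider (median 1047 bp against 789 bp in those with 6), with a higher fold (6.56 against 4.82) and height (37.8% against 19.6%). Just outside the rule, 1738 regions had a peak in 5 BE2C and 0 Kelly libraries, with a median fold of 4.54. A further 1460 regions reached 6 BE2C libraries but had a peak in exactly 1 Kelly library. That library was a shAhR-2 replicate in 432, 183 and 395 of these regions for replicates 1, 2 and 3. The other 6 Kelly libraries accounted for 6 to 185 each. Replicates 1 and 3 of Kelly shAhR-2 thus removed the most regions at this step, and replicate 2 removed about as many as pLKO replicate 1, with 185.

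Distances from members to Kelly peaks are given as a description. They were not computed for other regions, so nearness is not read as a trait of members. The nearest peak of any Kelly library was at a median distance of 9530 bp, within 10 kb for 1927 members (51.5%) and within 100 kb for 3664 (97.9%). Only 193 members (5.16%) had a Kelly peak within 1 kb. Another member lay within 10 kb for 366 members (9.78%) and within 100 kb for 1754 (46.9%), and the median gap to the nearest member was 113006 bp. Among the more numerous shared regions, 20.5% had another of their kind within 10 kb and 82.5% within 100 kb.

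Whether a Kelly list could have held a peak of the size seen in BE2C differed between the Kelly libraries. For each member, the median height over the BE2C libraries with a peak was scaled to a Kelly library by the sites called in all 18 libraries. It was then set against that library's background and weakest peak. At that height a peak would have passed at 3743, 1119 and 3738 members in pLKO replicates 1, 2 and 3. It would have passed at 1821 and 1942 members in shAhR-1 replicates 2 and 3, and at 3743, 3742 and 3743 in the shAhR-2 libraries. All 3743 members would have passed in at least 3 of these 8 libraries and 1119 in all 8. Replicate 1 of Kelly shAhR-1 was left out, since heights could be solved for 90.0% of its peaks and its background was not fixed. In 3 of the 8 libraries the absence of a weak member was thus not informative: the share that would have passed was 29.9%, 48.7% and 51.9%. The calculation assumes the same scale in both lines. It also carried each member's BE2C ratio of local to genome-wide background over to Kelly. A higher local background in Kelly than this would lower these counts. BE2C libraries with no peak at a member were left out of its median. That raises the height used for members called in fewer than 9 libraries, and with it these counts.

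The strongest members reached heights near those of sites open in every library. The 10 with the highest lowest fold among 9 peaks lay, on hg19, at chr2:190538612-190539844, chr13:73425200-73426335, chr2:208988387-208989449, chr21:39492941-39494041, chr6:120326263-120327275, chr5:23951236-23952393, chr2:198593154-198594484, chr8:114058333-114059352, chr10:50886988-50888045 and chr1:221887571-221889178. An hg19 annotation was not used here, so the genes at these positions are not named and the sequences are not shown. Of these, 3 are on the long arm of chromosome 2. The lowest fold ran from 8.0 at the chromosome 1 region to 9.47 at the first region on chromosome 2.

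At chr2:190538612-190539844 the fold was 16.1, 16.8 and 15.5 with pLKO, 14.0, 10.7 and 9.47 with shAhR-1, and 11.3, 11.5 and 11.2 with shAhR-2. Its height was 166%, 169% and 168% with pLKO, 118%, 133% and 112.5% with shAhR-1, and 166%, 168% and 177% with shAhR-2. The site was higher than the typical site called in all 18 libraries in each BE2C library, yet its nearest Kelly peak was 11846 bp away. All 3 shAhR-1 libraries lay below all 6 others. The height fell by 0.59 (SE 0.14) on the log2 scale with shAhR-1 against pLKO (limma, adjusted p = 0.0145), and the difference of shAhR-2 from pLKO was −0.09 (SE 0.14; limma, adjusted p = 0.619). With quantile normalization the shAhR-1 difference was −0.42 and did not pass (limma, adjusted p = 0.0634). These differences come from the fit over all regions described with the hairpins below.

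At chr2:208988387-208989449 the height was 81.1%, 58.1% and 80.6% with pLKO, 67.1%, 86.7% and 96.9% with shAhR-1, and 121%, 118% and 117% with shAhR-2. The 3 shAhR-2 libraries lay above the other 6, and the pLKO and shAhR-1 values overlapped. The log2 difference of shAhR-2 from pLKO was 0.60 (SE 0.16; limma, adjusted p = 0.0105). At chr6:120326263-120327275 the height was 43.4%, 62.9% and 65.3% with pLKO, 82.3%, 102% and 78.1% with shAhR-1, and 108%, 92.5% and 121% with shAhR-2. Here every hairpin library exceeded every pLKO library. The log2 difference from pLKO was 0.81 (SE 0.19) with shAhR-2 (limma, adjusted p = 0.00447), and 0.51 (SE 0.19) with shAhR-1, which did not pass (limma, adjusted p = 0.0941). Centred on the sites called in all 18 libraries, the shAhR-1 difference was 0.63 and passed (limma, adjusted p = 0.0394).

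The other 7 of these regions passed no comparison between vectors in the fit; chr8:114058333-114059352 passed for shAhR-2 against pLKO under that other centring (log2 difference 0.49; limma, adjusted p = 0.0308). At chr2:198593154-198594484 the height was 86.8%, 93.5% and 104% with pLKO, 93.7%, 104% and 96.9% with shAhR-1, and 99.4%, 96.9% and 98.8% with shAhR-2. All 9 libraries lay in a narrow band around the median of the sites called everywhere. At chr13:73425200-73426335, 68606 bp from the nearest Kelly peak, heights ran from 69.8% to 111%, both in pLKO libraries. At chr1:221887571-221889178 a Kelly peak lay 946 bp away, and the BE2C heights were 74.7% to 109%.

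**Figure D1:**
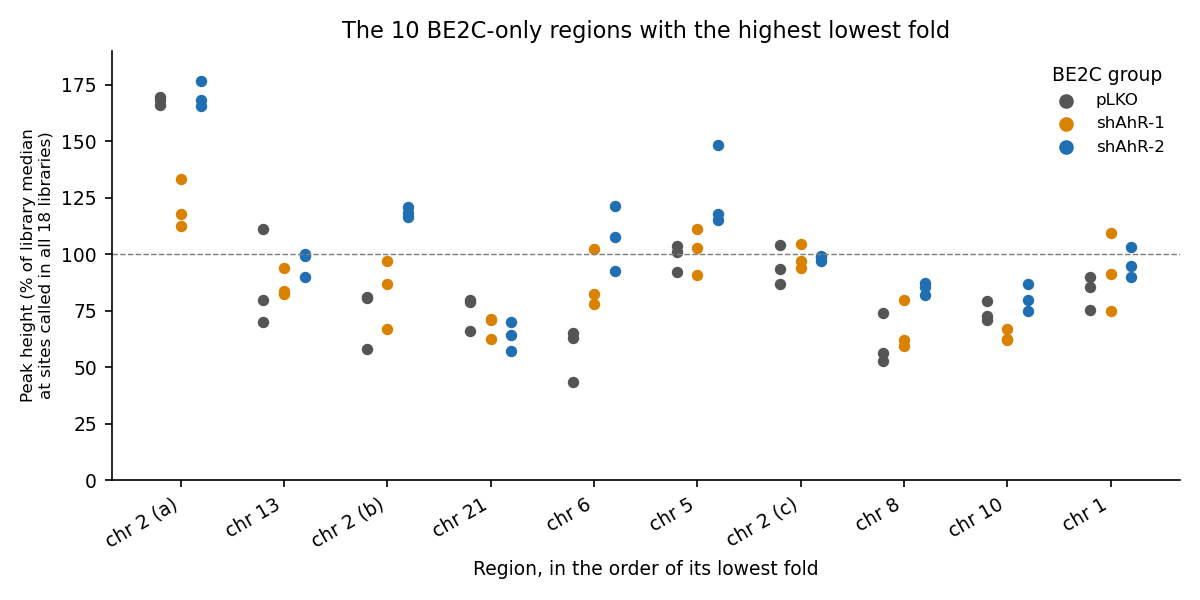
Peak height in each BE2C library, in percent of the library's median at sites called in all 18 libraries (y axis), for the 10 members with the highest lowest fold (x axis), coloured by vector; the dashed line is 100%. The first region on chromosome 2 stood at 112.5% to 177%, and the shAhR-2 points of the chromosome 6 region lay above its pLKO points.

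Members made up unequal shares of the BE2C sites of different chromosomes. Over the genome they were read as a percentage of the regions with a peak in at least 6 BE2C libraries. Chromosome 18 had the highest share (22.7%, 106 of 467 regions), followed by chromosomes 20 (17.4%), 9 (17.3%), 11 (16.5%) and 21 (16.2%). The lowest shares were on chromosomes 17 (5.38%), 19 (6.64%) and 22 (7.19%). By number, chromosome 2 led with 400 members, and it also held the most Kelly-only regions, 98 of 587. Of these 98, 58 lay in the single window chr2:10000001-20000000. Chromosome 18 combined its 106 members with 16 Kelly-only regions.

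**Figure D2:**
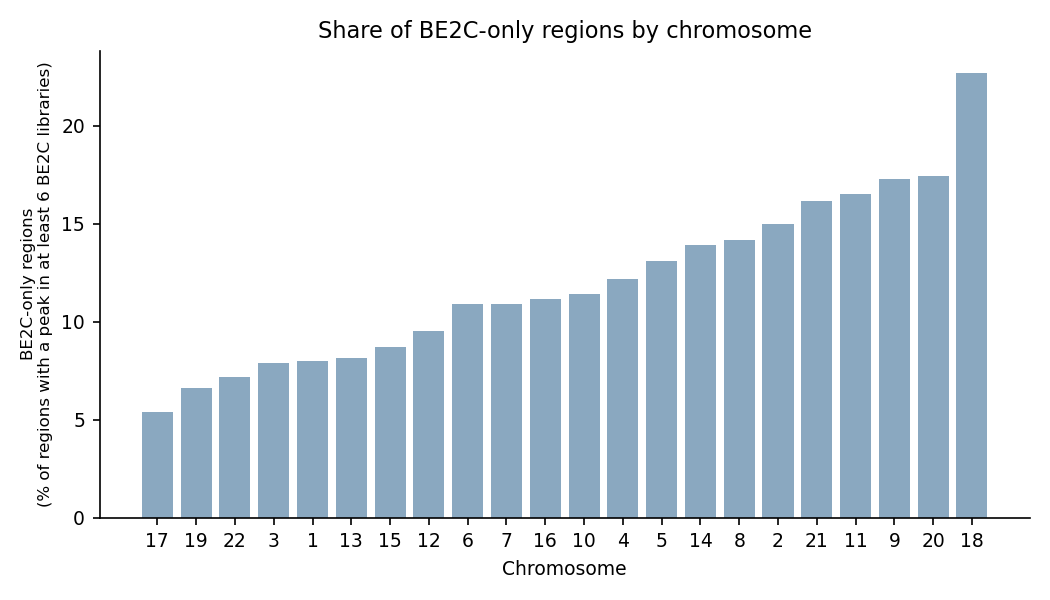
Members as a percentage of the regions with a peak in at least 6 BE2C libraries (y axis), by chromosome in rising order (x axis), with 1 bar for each of chromosomes 1 to 22. Bars run from 5.38% on chromosome 17 to 22.7% on chromosome 18.

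The height of sites open in both lines moved with these shares in some places. Height at the sites called in all 18 libraries was compared between the lines as the median ratio of BE2C to Kelly, with each library scaled to its own median over all such sites. The ratio was 1.57 on chromosome 20, 0.761 on chromosome 17 and 0.707 on chromosome 22, so sites present everywhere were also higher in BE2C on chromosome 20 and lower on the other two. On chromosome 18, with the highest share of members, the ratio was 1.01 at 55 sites. Of these sites, 18 lay in chr18:1-10000000 and 14 in chr18:10000001-20000000. Only 5 of 64 and 3 of 46 regions were members there. The ratio of chromosome 18 was thus measured mostly away from its members and says little about the places where most of them lay. On chromosome 19 the ratio was 1.15 with a share of 6.64%.

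The same comparison was made in windows of 10 Mb that held at least 10 sites called in all 18 libraries, which gave 252 windows with 3269 members. Pearson's r between the percentage of members and the log2 ratio of BE2C to Kelly height at the common sites was 0.64, and Spearman's rho was 0.56. All windows come from the same libraries, and neighbouring windows are not independent, so these values are a description. In 19 windows with a log2 ratio of at least 0.5, 601 of 2631 regions were members (22.8%). In 16 windows with a ratio below −0.5, 82 of 1511 regions were (5.43%). In the 137 windows between −0.25 and 0.25, 1568 of 16466 were (9.52%), and these windows held 41.9% of all members. The number of DNA copies in each line was not analysed here, and its part in these shares was not tested.

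**Figure D3:**
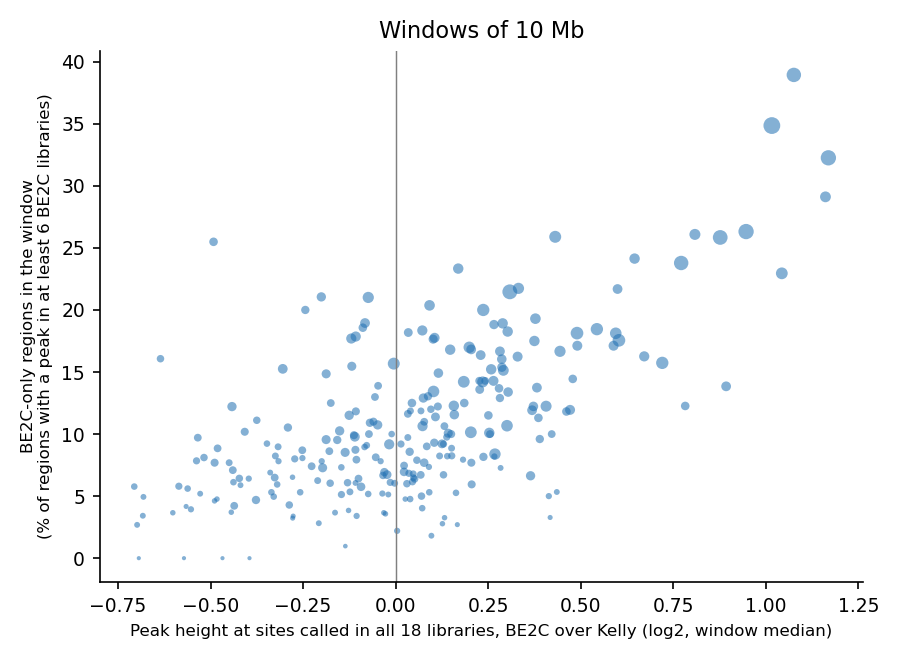
Each point is a window of 10 Mb, sized by its number of members, with the log2 ratio of BE2C to Kelly peak height at sites called in all 18 libraries (x axis, window median) and members as a percentage of regions with a peak in at least 6 BE2C libraries (y axis). Windows with a log2 ratio of at least 0.5 held 22.8% members together, and those below −0.5 held 5.43%.

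Shares fell off gradually from the highest windows. In chr9:80000001-90000000, 44 of 113 regions were members (38.9%), and common sites were 2.11 times as high in BE2C as in Kelly. In chr7:100000001-110000000 it was 61 of 175 (34.9%) at a ratio of 2.02, and in chr9:90000001-100000000 50 of 155 (32.3%) at a ratio of 2.25. These windows held 1 Kelly-only region between them. The window with the most members, chr11:120000001-130000000, had 71 of 204 (34.8%) at a ratio of 3.07, but over 7 common sites only, so it was not among the 252. A high share did not always come with a high ratio: in chr11:20000001-30000000, 13 of 51 regions were members (25.5%) at a ratio of 0.711, beside 7 Kelly-only regions.

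At a scale of 1 Mb, the 5 windows with the most members were chr2:238000001-239000000 with 16 of 40 regions, chr11:128000001-129000000 with 16 of 30, chr2:240000001-241000000 with 14 of 22, chr11:123000001-124000000 with 14 of 37 and chr14:100000001-101000000 with 14 of 30. None of them held a Kelly-only region. Members in the chr11:128000001-129000000 window had a median height of 47.8%, above the 24.4% of all members, and those of the chromosome 14 window 25.4%.

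With the vectors taken into account, nearly every member was present with shAhR-2, and the difference between members lay in the other 6 lists. Of the members, 3597 (96.1%) had a peak in all 3 shAhR-2 libraries, 2137 (57.1%) in all 3 pLKO libraries and 1044 (27.9%) in all 3 shAhR-1 libraries. The share of members with a peak was 72.3%, 77.4% and 94.5% in the pLKO libraries, 92.0%, 52.9% and 41.7% with shAhR-1, and 98.6%, 98.4% and 98.7% with shAhR-2. The 3 highest values belong to the 3 longest lists and the 2 lowest to the 2 shortest. Because the shAhR-2 lists contain nearly all members, the rule in effect asked for a peak in 3 of the 6 pLKO and shAhR-1 lists. That choice favours presence with pLKO and shAhR-1. Presence and share by vector are therefore given as a description with no test, in lists of equal length.

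Each BE2C list was shortened to its 24894 strongest peaks, the length of the shortest list. Members then took up 7.21%, 7.14% and 7.17% of the pLKO lists, 7.17%, 7.36% and 6.35% of the shAhR-1 lists, and 4.89%, 4.97% and 4.99% of the shAhR-2 lists. All 3 shAhR-2 values lay below the other 6, and the pLKO and shAhR-1 values overlapped. The means were 7.17% ± 0.0322, 6.96% ± 0.536 and 4.95% ± 0.0517 (SD, n = 3 each). The ratio was 0.690 for shAhR-2 to pLKO, 0.712 for shAhR-2 to shAhR-1 and 0.969 for shAhR-1 to pLKO. The share of each list in shared regions was 64.5% to 66.6% in all 9.

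The lower share with shAhR-2 depended on how a member was counted. When presence required a peak over 50% or more of the merged region, the direction turned, to 1.23 times the pLKO share and 1.62 times the shAhR-1 share. A merged region spans the peaks of all lists, so this requirement favours lists with wide peaks. Peak width by vector was not compared here. When members were chosen without the Kelly shAhR-2 lists, an alternative added after the data were seen, the ratios to pLKO and to shAhR-1 were 0.860 and 0.887.

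**Figure D4:**
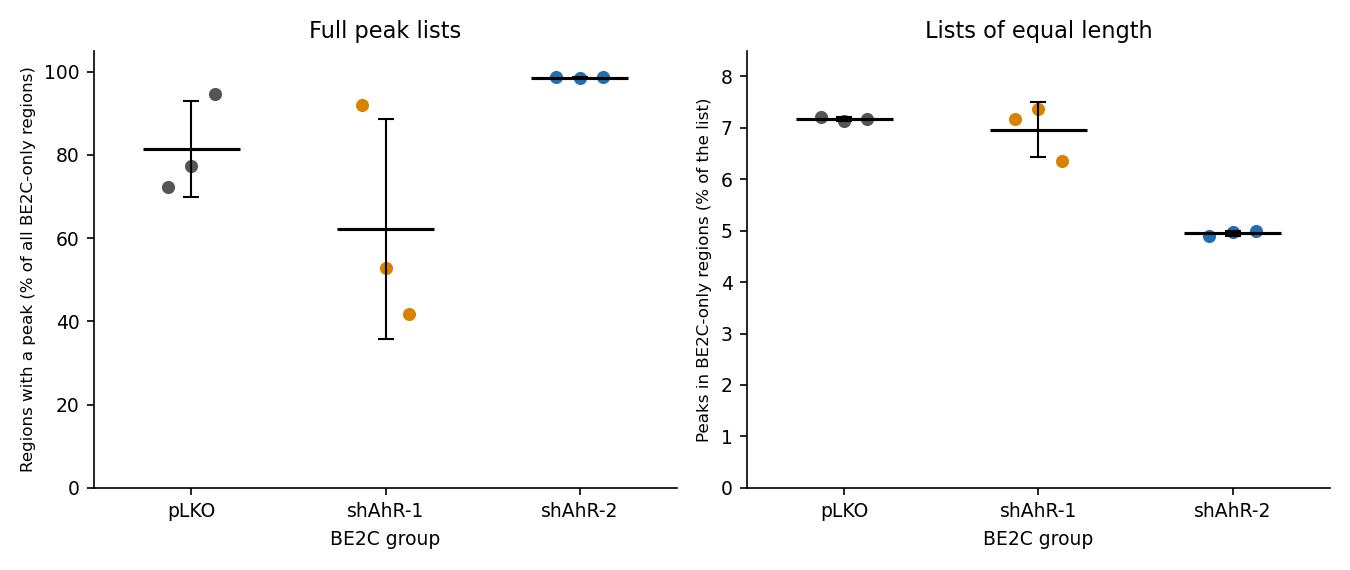
Left, members with a peak in each full BE2C list, in percent of all members; right, peaks in members in percent of each list after shortening to equal length; points are libraries by vector (x axis), lines and bars are mean and SD. The shAhR-2 libraries were highest on the left, at 98.4% to 98.7%, and lowest on the right, at 4.89% to 4.99%.

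At equal list length, 3376 members kept a peak in at least 1 BE2C list, and some of them split fully by vector. A peak in 3 of 3 shAhR-1 and 0 of 3 pLKO lists was found for 129 of them (3.82%), against 1.38% of all 40123 regions with a peak in a shortened BE2C list. The reverse was found for 153 (4.53%), against 1.69%. Present in all shAhR-2 and no pLKO list were 108 members (3.20%; all regions 3.64%), and the reverse held for 358 (10.6%; all regions 3.2%). Between the hairpins, 50 (1.48%; all regions 3.12%) had the peak with shAhR-2 only, and 212 (6.28%; all regions 2.03%) with shAhR-1 only. Among the 30897 regions with at least 6 full BE2C lists, which could have been members by that condition, the 6 background shares in the same order were 1.73%, 1.92%, 2.61%, 3.84%, 1.92% and 2.57%. The comparisons with pLKO share the 3 pLKO libraries.

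The rule chose members by peaks in these lists, so nothing is read from the difference between these shares and the background. Most of these splits are, in at least 1 list, differences in rank. Of the 358, 357 had a weaker peak in at least 1 full shAhR-2 list, as did all 212 of the members present with shAhR-1 only. Of the 129 and 153 members of the shAhR-1 and pLKO comparison, 110 and 115 had such a weaker peak. The rest of these had no peak in any full list of the other group. The list of shAhR-1 replicate 3 was the shortest and was not shortened, so absence there is a missing call. The balance also turned with the counting: for shAhR-2 against pLKO, full lists gave 37 members with shAhR-2 only and 1 with pLKO only, and required coverage of 50% gave 260 and 147.

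The clearest members in this pattern had high folds in 1 vector and low folds elsewhere. At chr2:151537823-151538409, 127180 bp from the nearest Kelly peak, the fold was 10.4, 8.82 and 8.75 with pLKO, 5.68 with shAhR-1 replicate 1, and 5.23, 5.50 and 4.42 with shAhR-2. No peak was called there in shAhR-1 replicates 2 and 3. The pLKO folds lay above every hairpin fold. At chr8:20219049-20219681 it was 8.73, 8.65 and 12.1 with pLKO, 5.83 in shAhR-1 replicate 1, and 3.89 and 4.49 in shAhR-2 replicates 1 and 3, with no peak in the 3 remaining lists. At chr9:135406490-135407692 it was 8.88, 8.41 and 9.48 with pLKO, 5.0 in shAhR-1 replicate 1, and 5.29, 4.62 and 4.24 with shAhR-2.

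In the opposite direction, chr14:29975687-29976441 had no peak in any pLKO list, folds of 7.57, 5.10 and 5.81 with shAhR-1 and folds of 10.5, 10.6 and 9.03 with shAhR-2. It was among the 37 members with no pLKO peak at full length. At chr1:209488763-209489890 the fold was 4.07 and 6.08 in pLKO replicates 1 and 3, 8.60, 7.24 and 7.09 with shAhR-1 and 10.3, 10.2 and 9.77 with shAhR-2, while pLKO replicate 2 had no peak. At chr12:89431917-89433027 it was 4.41 and 5.25 in pLKO replicates 2 and 3, 10.3, 7.33 and 5.14 with shAhR-1 and 11.5, 10.6 and 9.36 with shAhR-2. In these last regions the pLKO folds lay below the hairpin folds, except that of shAhR-1 replicate 3 on chromosome 12. Named by the same rule, chr15:94031181-94032201 and chr8:106565721-106567590 had a peak in pLKO replicate 3 alone among pLKO lists, with folds of 6.65 and 5.25, and in all 6 hairpin lists.

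The hairpins also differed from each other at single members. At chr4:41622379-41623367 the fold was 10.2, 9.50 and 9.54 with shAhR-2 and 5.68 in shAhR-1 replicate 1, with no peak in the other shAhR-1 lists. With pLKO it was 5.57, 5.21 and 10.2. At chr6:2529296-2530094 the fold was 9.51, 7.90 and 7.17 with shAhR-1 and 6.27, 7.48 and 6.27 with shAhR-2. The same rule named chr14:64030026-64031401 and chr5:116868540-116869670 for shAhR-2, and chr6:121363159-121364485 and chr3:160566520-160567092 for shAhR-1. At chr6:2529296-2530094 the folds overlapped, but the heights did not: they were 49.4%, 51.1% and 53.1% with shAhR-1 and 19.1%, 20.6% and 20.2% with shAhR-2. The fold divides by the local background at the summit. The height divides by the library's median at the sites called in all 18 libraries. That median was 79, 45 and 32 overlapping reads with shAhR-1 and 157, 160 and 163 with shAhR-2.

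Height could be compared as a quantity at 17626 regions with a solved peak in all 9 BE2C lists, of which 752 were members. These 752 are not all members. A weak site enters this set only if it also passed in the 2 short shAhR-1 lists, so sites high with shAhR-1 had a better chance to enter. The log2 heights, centred on each library's median over these regions, were tested with limma over all regions with Benjamini-Hochberg adjustment at 0.05, a comparison added after the data were seen.

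Relative to pLKO, 102 members (13.6%) were higher and 30 (3.99%) lower with shAhR-1, where 6.74% and 4.73% of all regions were. With shAhR-2, 127 (16.9%) were higher and 175 (23.3%) lower, where 17.7% and 20% of all regions were. Between the hairpins, 49 (6.52%) were higher with shAhR-2 and 211 (28.1%) higher with shAhR-1, where 13.9% and 16.8% of all regions were. The median log2 difference of members was 0.11 for shAhR-1 against pLKO (all regions −0.03), −0.05 for shAhR-2 against pLKO (all regions −0.02) and −0.14 for shAhR-2 against shAhR-1 (all regions 0.01). Since the requirement of a peak in all 9 lists selects for height with shAhR-1, nothing is read from the balance of calls in the comparisons with that hairpin.

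Scaling decided part of this. Centring on the sites called in all 18 libraries, the scale of the percentages printed here, raised the median of all regions from −0.03 to 0.09 for shAhR-1 and from −0.02 to 0.09 for shAhR-2 against pLKO. The members called then numbered 153 higher (20.3%; all regions 10.5%) and 16 lower (2.13%; all regions 2.17%) for shAhR-1. For shAhR-2 they numbered 165 higher (21.9%; all regions 23.9%) and 132 lower (17.6%; all regions 14.1%), and the member median became 0.06. Quantile normalization gave 51 higher (6.78%; all regions 4.16%) and 38 lower (5.05%; all regions 3.19%) for shAhR-1 against pLKO, with a member median of −0.01. For shAhR-2 against pLKO it gave 92 higher (12.2%; all regions 17.4%) and 189 lower (25.1%; all regions 17.6%), with a member median of −0.12. In the comparison of the hairpins, the median stayed below 0 under each scaling, but no scaling removes the selection for height with shAhR-1.

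The members described next were chosen after their values were seen, from the 3 with the largest log2 difference past the threshold in each comparison and direction. The largest of all was at chr2:33090439-33091128, where the height was 50.9%, 59.7% and 44.9% with pLKO, 15.2%, 35.6% and 40.6% with shAhR-1, and 11.5%, 14.4% and 11.7% with shAhR-2. All hairpin libraries lay below all pLKO libraries there, and the difference of shAhR-2 from pLKO was −2.16 (SE 0.27; limma, adjusted p = 7.4e-05). That of shAhR-1 was −0.996 (SE 0.27; limma, adjusted p = 0.0284), and it did not pass when centred on the sites called in all 18 libraries (limma, adjusted p = 0.0634). At chr6:122319966-122321436 the height was 22.6%, 17.7% and 17.3% with pLKO, 63.3%, 77.8% and 71.9% with shAhR-1, and 22.9%, 28.1% and 35.0% with shAhR-2. The shAhR-1 libraries stood above all others, and the log2 difference from pLKO was 1.77 (SE 0.17; limma, adjusted p = 7.55e-05). At chr6:121363159-121364485, also on the long arm, the log2 difference of shAhR-1 from pLKO was 1.75 (SE 0.19; limma, adjusted p = 0.000137). At chr2:32975897-32976630 the height was 22.6%, 12.9% and 14.3% with pLKO, 63.3%, 55.6% and 53.1% with shAhR-1, and 17.2%, 14.4% and 14.1% with shAhR-2. Here shAhR-2 differed from shAhR-1 by −1.91 (SE 0.19; limma, adjusted p = 6.95e-05) and from pLKO by −0.20 (SE 0.19; limma, adjusted p = 0.428). The chromosome 6 regions and chr2:32975897-32976630 were low with pLKO and entered the fit under the selection for height with shAhR-1 given above. Their p-values take no account of that selection.

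A group of members changed in the same direction with both hairpins. Those that rose were low with pLKO and entered the fit under the same selection for height with shAhR-1. A rise with shAhR-1 favoured entry, so nothing is read from the agreement of the hairpins there. At chr11:128264182-128265320 the height was 20.8%, 24.2% and 26.5% with pLKO, 63.3%, 60.0% and 62.5% with shAhR-1, and 70.1%, 69.4% and 79.1% with shAhR-2. Both hairpin groups stood above pLKO without overlap, by 1.27 (SE 0.15; limma, adjusted p = 0.00019) and 1.51 (SE 0.15; limma, adjusted p = 2.34e-05) on the log2 scale. At chr5:86923124-86924106 the height was 28.3%, 22.6% and 15.3% with pLKO, 62.0%, 60.0% and 59.4% with shAhR-1, and 65.6%, 68.1% and 85.9% with shAhR-2. The log2 differences there were 1.38 and 1.65 (SE 0.19 each; limma, adjusted p = 0.000649 and 4.69e-05). At chr2:193278427-193279534, heights with pLKO were 15.1%, 29.0% and 16.3%, against 44.3%, 60.0% and 31.2% with shAhR-1 and 63.1%, 76.2% and 69.9% with shAhR-2. The shAhR-1 difference there was 1.06 (SE 0.26; limma, adjusted p = 0.0192), but 0.91 and not past the threshold with quantile normalization (limma, adjusted p = 0.0781).

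The reverse was seen at chr14:100006618-100007681, where the height was 73.6%, 98.4% and 86.7% with pLKO, 54.4%, 40.0% and 34.4% with shAhR-1, and 33.8%, 35.0% and 38.7% with shAhR-2. It fell by 1.14 (SE 0.19) with shAhR-1 and by 1.37 (SE 0.19) with shAhR-2 on the log2 scale (limma, adjusted p = 0.00226 and 0.00016). This region lies in the 1 Mb window of chromosome 14 with 14 members.

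Other members changed with shAhR-2 alone past the threshold. At chr17:15672174-15672929 the height was 47.2%, 48.4% and 49.0% with pLKO, 36.7%, 40.0% and 50.0% with shAhR-1, and 9.55%, 13.1% and 15.3% with shAhR-2. The difference of shAhR-2 was −2.06 from pLKO and −1.75 from shAhR-1 (SE 0.17 each; limma, adjusted p = 1.31e-05 and 6.95e-05). At chr4:187124621-187126004 the height was 49.1%, 61.3% and 69.4% with pLKO, 62.0%, 57.8% and 37.5% with shAhR-1, and 129%, 131% and 139% with shAhR-2. The shAhR-2 libraries stood 1.05 above pLKO and 1.38 above shAhR-1 on the log2 scale (SE 0.21 each; limma, adjusted p = 0.00149 and 0.00063).

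At chr11:109179520-109180652 the hairpins went opposite ways, under the selection for height with shAhR-1 given above. The height was 20.8%, 22.6% and 21.4% with pLKO, 39.2%, 48.9% and 37.5% with shAhR-1, and 12.7%, 11.2% and 11.7% with shAhR-2, and no group overlapped another. The log2 difference from pLKO was 0.83 (SE 0.15) with shAhR-1 and −0.97 (SE 0.15) with shAhR-2 (limma, adjusted p = 0.00377 and 0.000316). The hairpins differed from each other there by −1.80 (SE 0.15; limma, adjusted p = 2.97e-05).

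**Figure D5:**
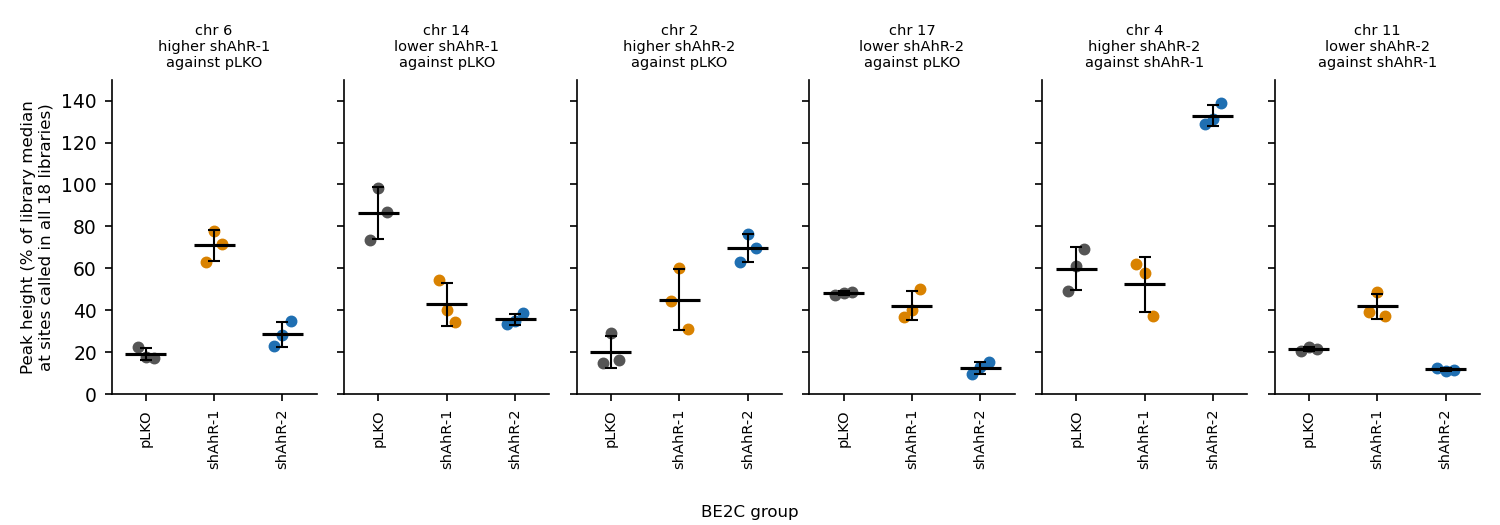
Peak height in percent of the library's median at sites called in all 18 libraries (y axis) in the 3 BE2C groups (x axis) at 6 members, each named above its panel by chromosome and by the comparison it was chosen from; points are libraries, lines and bars are mean and SD. The shAhR-1 libraries stood at 63.3% to 77.8% in the chromosome 6 panel, and the shAhR-2 libraries at 129% to 139% in the chromosome 4 panel.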

How the data were processed

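Peak lists in the caller's 10-column layout were analysed, 1 list for each of 18 ATAC-seq libraries, with groups taken from the cell line and genotype labels. Per the labels' protocols, each library used 50K cells, 30 min of transposition and 10 PCR cycles. The build hg19 and the tools MACS2 2.1.0, BWA 0.7.17, deepTools 3.1.3, Trimmomatic 0.33 and CASAVA 1.8.2 are listed per the submitters' processing notes. What each tool did, and whether duplicate or mitochondrial reads were removed, is not given in the sources used here, and these steps can change which weak peaks pass. Each peak was deposited with an integer score by the authors' caller. The authors deposited the fold enrichment at the summit as a ratio on a linear scale. They also deposited, for every peak, −log10 of its p-value and of its q-value, and the highest q-value of any list was 0.05. The summit offset was also deposited.

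Lists on chromosomes 1 to 22 were merged at an overlap of 1 bp. For comparisons of vectors, lists were shortened to their 24894 strongest peaks by −log10 p. Shares were compared on the log2 scale. The exact permutation tests planned for them are not printed, because the rule chose members from the same lists. The pileup and local background at a summit were solved from fold and p, with a pseudocount of 1 and a Poisson tail, at folds of at least 1.5. At least 99.98% of pileups were whole within 0.05 in every library used for heights. Heights were tested with limma 3.58.1 in R 4.3.3 with Benjamini-Hochberg adjustment. Other steps used Python 3.11.15, numpy 2.4.6, pandas 2.3.3 and scipy 1.17.1, and the functions were tested on simulated data.

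Named members were the 10 with the highest lowest fold, up to 3 present in 3 of 3 libraries of 1 vector and 0 of 3 of another per comparison and direction (both hairpins first, then by lowest fold), and the 5 windows of 1 Mb with the most members. The members and lists were chosen with earlier results of these data known. The height comparison, its named members and the windows of 10 Mb were added after the data were seen. Gene lists, motifs and sequences planned for hg19 were not analysed here. Alternatives covered list length, number of libraries, coverage, thresholds, scaling, a replicate block and each library left out.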

Additional observations from a re-analysis of the deposited data

How the results depend on the processing

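The number of members was 752 when all 9 BE2C libraries had to carry the peak, 1051 with BE2C lists at the shortest BE2C length, 575 with all 18 lists at the shortest length (8967), 2367 when a peak had to cover 50% of the region and 7514 when the Kelly shAhR-2 lists were not used (added after the data were seen). It stayed within 1.5 times of 3743 with 5 of 9 libraries (5481), −log10 q of at least 5 (3084), chromosome X added (3867), pLKO libraries only (5226, of which 2137 were members; added after the data were seen) and each of the 18 libraries left out (2520 to 4175).

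The share of the shortened list, as log2 of shAhR-1 over pLKO, turned from −0.0456 to 0.0467 with the 10000 strongest peaks, to 0.17 with members in all 9 libraries and to 0.0190 without shAhR-1 replicate 3 (range with a library left out −0.0872 to 0.0190). With 50% coverage the log2 share of shAhR-2 turned to 0.30 against pLKO and 0.70 against shAhR-1. With a library left out, these 2 comparisons kept their direction.

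Members present in 3 of 3 lists of the first vector and 0 of 3 of the second, then the reverse, numbered as follows. For shAhR-1 against pLKO: 14 and 19 with the 10000 strongest peaks, 37 and 169 with full lists, 33 and 85 with 50% coverage, 357 and 333 with at least 2 of 3 lists. For shAhR-2 against pLKO: 28 and 36, 37 and 1, 260 and 147, 177 and 695. For shAhR-2 against shAhR-1: 20 and 21, 169 and 1, 284 and 46, 104 and 591. Members present with pLKO or shAhR-1 and not shAhR-2 thus outnumbered the reverse except with full lists and with 50% coverage. With a library left out the counts were 157 to 232 and 183 to 260 in the shAhR-1 and pLKO comparison, 128 to 144 and 383 to 480 in that of shAhR-2 and pLKO, and 63 to 138 and 235 to 370 between the hairpins. Counts moved by over 1.5 times without shAhR-1 replicate 1 (203 and 260; 138 and 336), replicate 2 (89 with shAhR-2 only) or replicate 3 (232 with shAhR-1 and not pLKO; 370 with shAhR-1 only). Leaving out a library makes the criterion easier to meet.

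In the height comparison, quantile normalization gave 51 higher members and a median of −0.0109 for shAhR-1 against pLKO, and scaling by the sites called in all 18 libraries gave 16 lower members there and a median of 0.0647 for shAhR-2 against pLKO. With a library left out, higher and lower members were 63 to 145 and 18 to 49 for shAhR-1 against pLKO, and 27 to 66 higher for shAhR-2 against shAhR-1. The counts that moved by over 1.5 times were those without shAhR-1 replicate 2 (63 higher), pLKO replicates 2 or 3 (18 lower each) and shAhR-1 replicate 3 (49 lower), and without shAhR-2 replicates 1, 2 or 3 (29, 27 and 28 higher than shAhR-1). The cause was not tested. With a replicate block the counts were 86 and 23 with shAhR-1, 120 and 169 with shAhR-2, and 47 and 201 between the hairpins. For the shares (log2 −0.05, −0.53 and −0.49) a block cannot move a difference of means with 3 libraries per group, so nothing is read from it there. Same-numbered libraries did not deviate together (r −0.28 to 0.11, against −0.17 to 0.31 for other pairs), so the numbers do not pair them. Pearson's r over windows was 0.64 with at least 5 common sites, 0.47 with at least 20, 0.41 in windows of 5 Mb and 0.59 from pLKO libraries.

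List length limits what can be said of any member: absence from a shortened list is often a lower rank, and absence from the shorter Kelly lists says little about weak members.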

Other observations

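High local background was rarer at members than at other BE2C sites. In 63 of 3743 members (1.68%) the background at the summit was at least 5 times the genome-wide level, against 14.3% of shared regions and 8.96% of regions with a peak in at least 6 BE2C libraries. Members were chosen by peak calls and were weaker than shared regions, and a weak pileup on a high background may not pass the caller. The difference is therefore a description and is not read as a trait of members. The 63 were spread over many windows, with 5 in chr2:1-10000000. The highest was chr2:16219496-16220556, on the short arm of chromosome 2 that also carries MYCN. There the background was 94.1 times the genome-wide level, the fold was 1.37 to 1.82 in the 6 BE2C libraries with a peak, and the nearest Kelly peak was 533 bp away. At chr11:125983491-125983918 the background was 18.2 times the genome-wide level with folds of 2.05 to 4.03 in 7 libraries, and at chr20:30158559-30159017 it was 11.6 times with folds of 3.91 to 6.01 in all 9.

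Chromosome X was outside the rule. Applied to it, the same criteria gave 124 further regions.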
